A study of Mus musculus with 6 samples.

Results

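Interferon-stimulated genes are the genes that cells switch on after an interferon binds its receptor. A list of 39 mouse genes of this class was followed over all 6 arrays of the series, by the rule that a probe set had to carry the symbol of a listed gene and of no other. Of these, 36 had at least 1 such probe set (56 probe sets among the 34945 that name a single gene, and 36 genes among 18193). Isg15, Oas1g and Ifi44 had none and have no value here. All 36 lay above the level of the array's Bacillus control probe sets in the wild-type arrays and passed the filter on low signals.

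The arrays measured RNA of mouse bone marrow B cells, 2 arrays in each of 3 groups. Cells carrying CD3, Ter119, CD11b, DX5 or Gr1, which mark T, erythroid, myeloid and natural killer cells, had been depleted, and the rest were sorted by the light chain of their B cell receptor. The groups were wild-type Igκ+ cells (mb-1/TAK1+/+), wild-type Igλ+ cells (mb-1/TAK1+/+) and Igκ+ cells of the genotype mb-1/TAK1f/f, which the series title calls TAK1-/- and which are named TAK1-deficient here. All groups came from C57BL/6 animals of mixed sex, 8 to 12 weeks old, with no treatment named. The labels pair mb-1, a gene of the B cell receptor that is active in B-lineage cells, with the floxed allele, and name no recombinase. They also do not say whether the replicates are separate animals, so a p-value sets a difference against the spread of these arrays alone, and that spread may be technical. Arrays are called replicate 1 and replicate 2 within a group, a numbering that has no order.

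Type I interferons bind IFNAR1 and IFNAR2 and, through the kinases JAK1 and TYK2, activate STAT2, which acts with IRF9 in a complex called ISGF3. ISGF3 binds a promoter element called ISRE, whereas interferon-γ acts mainly through GAS elements. The products include sensors of viral RNA, enzymes and binding proteins that block viral replication, GTPases, and feedback regulators. TAK1, the product of Map3k7, is a kinase between receptors of inflammation and innate immunity and the NF-κB and MAP kinase pathways.

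The sequences in front of these genes were searched for the core of the element they are known for. RefSeq promoters (GRCm38.p6, 250 bases before to 50 after the start) were matched for 30 of the 39 listed genes. The core of the ISRE, GAAA followed by NN and GAAA (N being any base), read on both strands, stood in the promoters of 16 of these 30 (53.3%), against 3.99% of 27025 genes. The GAS core TTCNNNGAA stood in 8 (26.7%), against 9.55% of all genes, and 4 genes had both; in 1 of the 36 promoter records of the members the matches overlapped. The 250 bases before the start are printed for 6 genes, 5′ to 3′ on the gene's own strand, with ISRE cores in capitals (TTTC at both ends of the core marks a match on the other strand). The first 4 are genes that were highest on 1 wild-type array and the last 2 fell far in the TAK1-deficient arrays. All 6 hold a core in the record printed. A further Gbp3 record, at chr3:142560106-142560405 (+), holds none. Other genes with such values had a promoter entry without a core, among them Irf7 and Oasl2 for the first kind and Trim25 and Xaf1 for the second. Ifit1 is at chr19:34640639-34640888 (+), Ifit3 at chr19:34583279-34583528 (+), Oas1a at chr5:120907526-120907775 (-), Oas3 at chr5:120777660-120777909 (-), Gbp2 at chr3:142620413-142620662 (+) and Gbp3 at chr3:142559794-142560043 (+).
Ifit1: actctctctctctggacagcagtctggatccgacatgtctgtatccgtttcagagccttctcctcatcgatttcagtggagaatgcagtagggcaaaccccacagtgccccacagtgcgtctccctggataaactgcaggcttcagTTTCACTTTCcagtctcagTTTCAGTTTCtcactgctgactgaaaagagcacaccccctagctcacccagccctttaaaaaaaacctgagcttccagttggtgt
Ifit3: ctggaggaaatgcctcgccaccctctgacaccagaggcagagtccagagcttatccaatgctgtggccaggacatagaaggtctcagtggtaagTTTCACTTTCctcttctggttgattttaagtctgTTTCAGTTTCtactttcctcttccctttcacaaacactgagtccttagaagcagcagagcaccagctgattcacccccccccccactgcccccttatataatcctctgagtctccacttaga
Oas1a: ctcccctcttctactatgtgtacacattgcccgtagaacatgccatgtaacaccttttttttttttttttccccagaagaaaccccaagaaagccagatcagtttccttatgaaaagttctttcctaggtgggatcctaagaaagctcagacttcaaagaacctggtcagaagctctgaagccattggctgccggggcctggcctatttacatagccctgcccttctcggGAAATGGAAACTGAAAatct
Oas3: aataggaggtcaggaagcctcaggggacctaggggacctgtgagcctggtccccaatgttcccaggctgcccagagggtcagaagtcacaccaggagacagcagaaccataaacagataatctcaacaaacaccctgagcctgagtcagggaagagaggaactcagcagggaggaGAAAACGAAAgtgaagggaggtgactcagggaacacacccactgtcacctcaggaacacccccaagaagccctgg
Gbp2: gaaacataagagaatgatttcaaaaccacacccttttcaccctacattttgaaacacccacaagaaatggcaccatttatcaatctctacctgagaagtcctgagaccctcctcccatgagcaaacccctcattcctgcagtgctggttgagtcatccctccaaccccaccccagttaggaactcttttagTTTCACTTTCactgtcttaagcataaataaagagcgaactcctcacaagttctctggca
Gbp3: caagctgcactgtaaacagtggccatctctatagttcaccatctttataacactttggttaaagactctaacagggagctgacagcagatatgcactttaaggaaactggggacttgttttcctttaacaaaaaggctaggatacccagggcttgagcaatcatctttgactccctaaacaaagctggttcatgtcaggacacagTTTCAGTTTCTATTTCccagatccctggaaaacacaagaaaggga
The cores began 104 and 85 bases before the start in Ifit1, 156 and 122 in Ifit3, 20 and 14 in Oas1a (overlapping each other), 75 in Oas3, 59 in Gbp2, and 45 and 39 in Gbp3 (overlapping). A match describes these letters and was not tested as a binding site. The remaining 9 listed genes, Dhx58, Mx1, Mx2, Oas2, Parp14, Parp9, Rtp4, Usp18 and Zbp1, had no entry in the promoter table.

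Signals are Affymetrix MAS5 intensities on a linear scale, in which every array was scaled to the same trimmed mean of 499.9. The TAK1-deficient arrays nevertheless had a median signal of 323 to 324, against 44.9 to 59.1 on the wild-type arrays, spiked hybridisation controls at 41200 to 47040 against 3985 to 4608, and an Actb 3′/5′ ratio of 4.18 to 6.28 against 1.25 to 1.58. Log2 signals correlated at 0.92 between the TAK1-deficient arrays, at 0.962 to 0.984 among the wild-type arrays and at 0.435 to 0.512 between the genotypes. These quality values cannot be told apart from genotype. Map3k7, on the brightest of its 6 probe sets, read 346 and 599 in the TAK1-deficient arrays and 1805 to 2196 in wild type. With the deposited scaling its log2 difference to wild-type Igκ+ was -2.09 ± 0.273 SE (adjusted p = 0.000184, limma). Whether its probes lie in the deleted part is not known here. Of 9 B cell markers, Ms4a1 (CD20) read 10087 to 26569 and Cd79b 9747 to 16459 over the arrays, and Pax5 only 101 to 193. Between the genotypes 3 of the 9 were called higher (Ms4a1, Cd79b and Ebf1) and 3 lower (Cd79a, Blnk and Ly6d) in TAK1-deficient cells, with Cd79a at 2594 and 3166 against 6666 and 8189.9 in wild-type Igκ+ cells.

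Among the wild-type arrays, most interferon-stimulated genes were highest on Igλ+ replicate 1. This held for 23 of 36 members (63.9%), against 41.5% of the 13206 genes above the control level, for which the same array was also the commonest highest. Igλ+ replicate 2 was highest for 6 members (16.7%, against 20.6% of genes), Igκ+ replicate 2 for 5 (13.9%, against 19.1%) and Igκ+ replicate 1 for 2 (5.56%, against 18.8%). Igκ+ replicate 2 was lowest for 19 members (39.8% of all genes were lowest there), Igλ+ replicate 2 for 10 (24.6% of genes), Igκ+ replicate 1 for 4 (13.7%) and Igλ+ replicate 1 for 3 (21.9%). The median member stood 0.31 above its own mean over the 4 arrays on Igλ+ replicate 1 and 0.05, 0.07 and 0.24 below it on Igκ+ replicate 1, Igλ+ replicate 2 and Igκ+ replicate 2, in log2 of signal plus 16. The spread between the highest and the lowest of these medians was 0.545, against 0.192 over all genes.

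The order did not hold for every member. Of the 24 possible orders of 4 arrays, the commonest (Igλ+ 1, Igκ+ 1, Igλ+ 2, Igκ+ 2, from high to low) was that of 8 members (22.2%, against 13.1% of genes). The next were Igλ+ 1, Igκ+ 1, Igκ+ 2, Igλ+ 2 and Igλ+ 1, Igλ+ 2, Igκ+ 1, Igκ+ 2, with 5 members each. A clear lead, of at least 1.5-fold (in signal plus 16) over each of the other 3 arrays, belonged to Igλ+ replicate 1 in 9 members (25%, against 7.02% of genes): Ifit1, Ifit3, Oas1a, Oas2, Oas3, Oasl2, Irf7, Ifih1 and Usp18. No member had such a lead on another array (1.2%, 0.583% and 1.29% of genes on Igκ+ replicates 1 and 2 and Igλ+ replicate 2). Igλ+ replicate 1 was at least 1.5-fold above its own group's replicate 2 in 13 members (36.1%, against 16.6% of genes). With 2 arrays a group, this order is a description of 4 arrays. Without Igλ+ replicate 1 the spread of the member medians was 0.104, against 0.118 over all genes, and the array most often highest, Igκ+ replicate 1, led in 41.7% of members and 40.4% of genes.

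**Figure D1:**
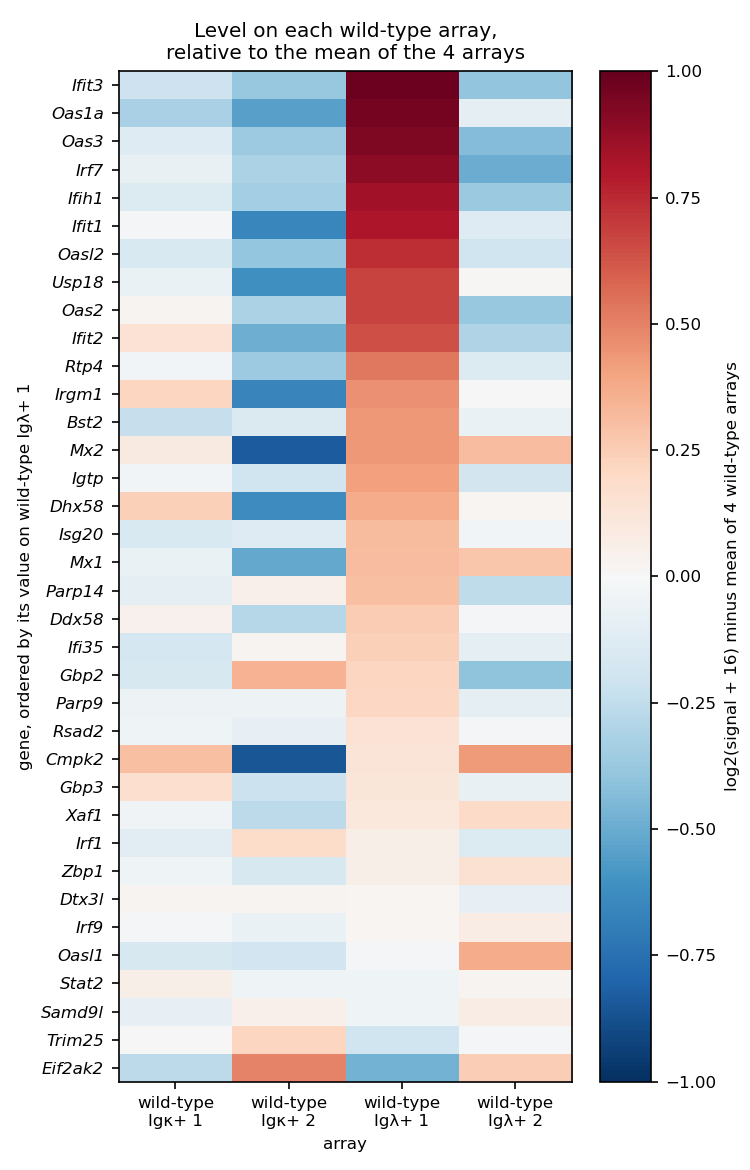
Log2 of signal plus 16 on each wild-type array, minus the gene's mean over the 4 wild-type arrays, for each of the 36 members. Igλ+ replicate 1 lies highest for 23 of the 36 and stands clear of the rest in most IFIT and OAS genes, whereas the transcription factors other than Irf7 stay near 0.

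The IFIT proteins, which bind viral RNA, were highest on Igλ+ replicate 1 in all 3 members, with a clear lead in Ifit1 and Ifit3. Ifit1, which binds RNA lacking a host cap, read 223 and 138 in wild-type Igκ+ cells and 409 and 206 in Igλ+ cells. Ifit3 read 463 and 411 in Igκ+ and 1077 and 406 in Igλ+ cells. Ifit2 read 553 and 351 in Igκ+ and 788 and 401 in Igλ+ cells. In all 3 genes the second Igλ+ array lay within or below the range of the Igκ+ arrays, so the groups overlapped.

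The OAS family comprises enzymes that make 2′-5′ oligoadenylates on double-stranded RNA, and relatives without that activity. The clear lead of Igλ+ replicate 1 held in 4 of its 5 measured members. In wild-type cells Oas1a read 459 and 392 (Igκ+) and 1138 and 541 (Igλ+). Oas3 read 174 and 146 (Igκ+) and 381 and 138 (Igλ+). Oas2 read 203 and 157 (Igκ+) and 328 and 149.9 (Igλ+). Only in Oas1a among these 3 did both Igλ+ arrays lie above both Igκ+ arrays. Oasl2 read 225 and 189.8 in Igκ+ and 432 and 218 in Igλ+ cells. Oasl1, which represses translation of Irf7, was the exception among the 5, with 412 and 401 in Igκ+ cells, 454 in Igλ+ replicate 1 and 599 in Igλ+ replicate 2.

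Of the transcription factors, Irf7, the inducible amplifier of interferon-α genes, read 503 and 424 in wild-type Igκ+ cells and 1001 and 372 in Igλ+ cells, and had the lead of Igλ+ replicate 1. The other 3 were level. Irf9, the DNA-binding part of ISGF3, read 2170.2 and 2094 in Igκ+ and 2224 and 2308 in Igλ+ cells. Stat2, its partner, read 576 and 538 in Igκ+ and 536 and 563 in Igλ+ cells. Irf1, a factor induced mainly by interferon-γ, read 2493 and 3055 in Igκ+ and 2789.6 and 2435 in Igλ+ cells. The highest array differed among the 4 factors, each being highest on another array.

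All sensors but Zbp1 were highest on Igλ+ replicate 1, with Ifih1 alone at the 1.5-fold lead. Ifih1 (MDA5), a sensor of long double-stranded RNA, was dim, with 94.9 and 80.5 in Igκ+ cells and 202 and 78.4 in Igλ+ cells. Ddx58 (RIG-I), which senses RNA with 5′ triphosphates, read 1835 and 1452 in Igκ+ and 2115 and 1765 in Igλ+ cells. Dhx58 (LGP2), a regulator of both, read 1078 and 584 in Igκ+ and 1184 and 924 in Igλ+ cells. Zbp1, a sensor of Z-form nucleic acid, read 1165 and 1076 in Igκ+ and 1252 and 1335 in Igλ+ cells, where Igλ+ replicate 2 was the higher.

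Among the other effectors, 5 of 8 were highest on Igλ+ replicate 1, none by 1.5-fold. Mx1, a GTPase that blocks influenza viruses and whose C57BL/6 allele is known to be defective, read 1182 and 864 in Igκ+ and 1543 and 1506 in Igλ+ cells, and Mx2 read 189 and 91.7 in Igκ+ and 243 and 222 in Igλ+ cells. In both, the Igλ+ arrays lay together above the Igκ+ arrays. Bst2 (tetherin), which holds budding virus at the membrane, read 904 and 959 in Igκ+ and 1440.0 and 1011 in Igλ+ cells. Eif2ak2 (PKR), a kinase that stops translation on double-stranded RNA, ran the other way on the probe set used, with Igλ+ replicate 1 lowest. It read 546 and 936 in Igκ+ and 470.3 and 785 in Igλ+ cells. The further Eif2ak2 probe sets were lowest on Igκ+ replicate 1 instead. They read 383 and 440 (Igκ+) and 446 and 544 (Igλ+), and 387 and 550 (Igκ+) and 442 and 473 (Igλ+). Rsad2 (viperin) read 413 and 401 in Igκ+ and 472 and 419.7 in Igλ+ cells, and the exonuclease Isg20 read 520.5 and 530.1 in Igκ+ and 728 and 569.9 in Igλ+ cells. Samd9l read 5653 and 6173 in Igκ+ and 5788 and 6299 in Igλ+ cells. Cmpk2, a mitochondrial nucleotide kinase, read 1368 and 607 in Igκ+ and 1215 and 1490.0 in Igλ+ cells, so that its lowest array and its second highest were both Igκ+.

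Usp18, the protease that removes ISG15 and also damps the receptor, led among the enzymes of ubiquitin, ISG15 and ADP-ribose, with 703 and 476 in Igκ+ and 1188 and 742 in Igλ+ cells. Its Igλ+ arrays lay above both Igκ+ arrays. Dtx3l and Parp9, which form a complex, were nearly flat at 3860.0 to 4164 and 1568 to 1947 over the 4 wild-type arrays. Parp14 ranged from 2214 to 3259. A further Dtx3l probe set was not flat, at 2129 to 3953, and was highest on Igλ+ replicate 2. Trim25, the ubiquitin ligase that acts on RIG-I, read 3556 and 4151 in Igκ+ and 3099.5 and 3531 in Igλ+ cells. It was lowest on Igλ+ replicate 1, as was a further Trim25 probe set. A dimmer Trim25 probe set was highest there, with 386 and 244 in Igκ+ and 580 and 293 in Igλ+ cells. The GTPases, of which Gbp2 and Gbp3 are guanylate-binding proteins and Igtp and Irgm1 immunity-related GTPases that act on membranes around microbes, showed no 1.5-fold lead. Gbp2 read 419.5 and 602 in Igκ+ and 549.5 and 351 in Igλ+ cells, Igtp 1362 and 1209 in Igκ+ and 1847 and 1216 in Igλ+ cells, and Gbp3 and Irgm1 ranged from 1727 to 2262 and from 799.7 to 1751. Of the last 3 genes, Rtp4 (529.9 to 993) and Ifi35 (4768 to 6376) were highest on Igλ+ replicate 1, and Xaf1 (1852 to 2547) on Igλ+ replicate 2.

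**Figure D2:**
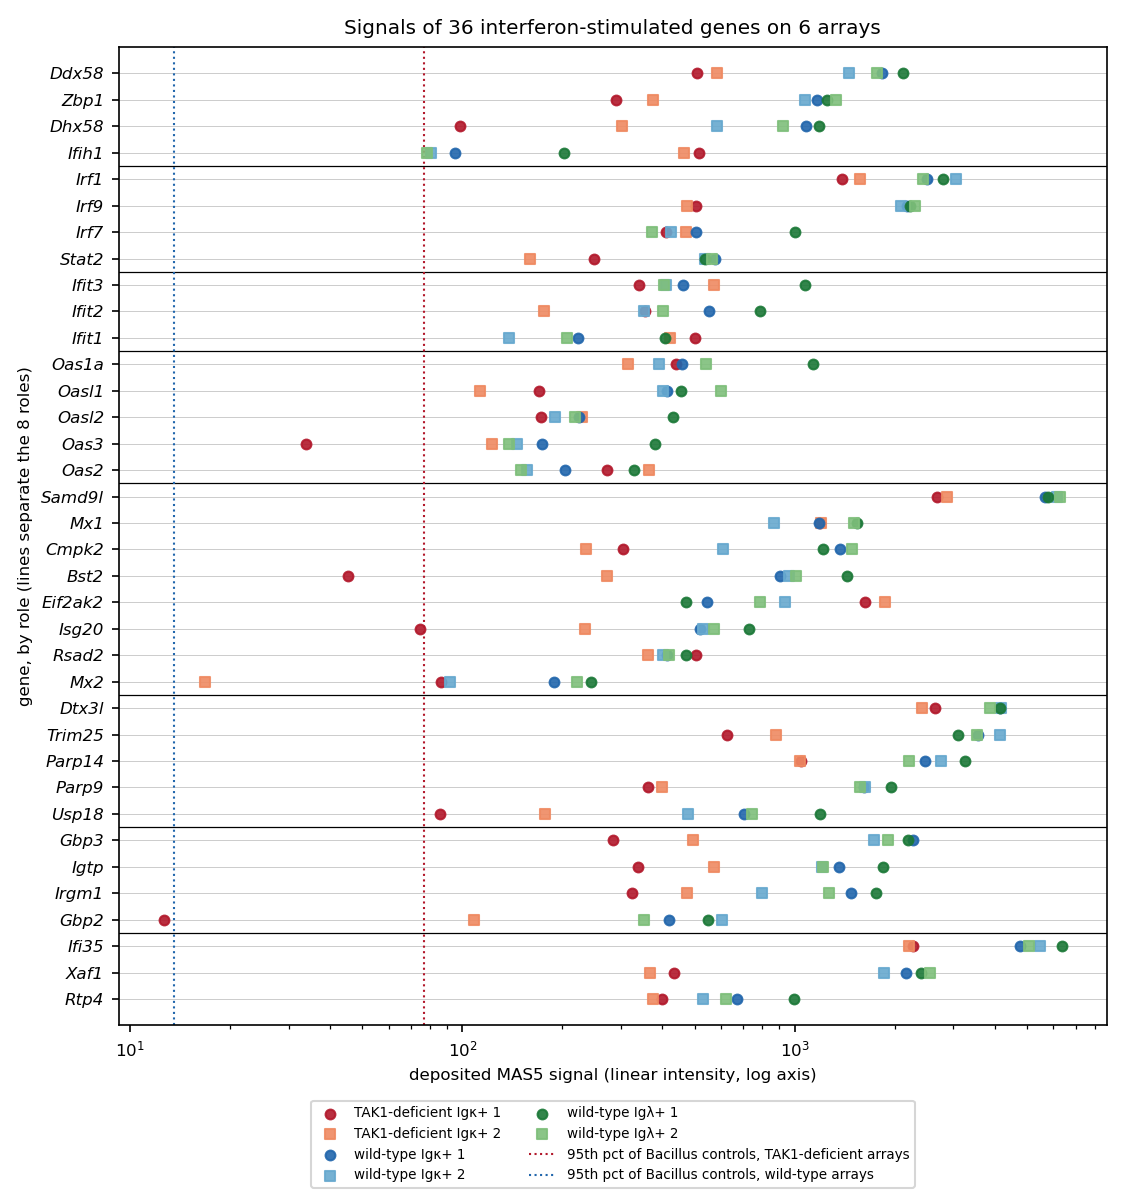
Signal (log axis) of the 36 members on each of the 6 arrays, grouped by role, with 1 point an array and the 3 groups in separate colours. In most members the TAK1-deficient points lie below the wild-type points, with Ifih1, Eif2ak2 and Ifit1 as those above Igκ+ in both arrays and called higher with the deposited scaling; under median centring or spike scaling those 3 lie below.

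The wild-type order was also read beside the promoter letters. Over all genes above the control level, 41.5% were highest on Igλ+ replicate 1, and the median deviation on that array was 0.09. Of the 14 measured members with a core, 10 were highest there, and their median deviation on that array was 0.42. Of the 13 with a promoter entry and no core, 5 were, and the median was 0.11. Of the 9 without an entry, 8 were, with a median of 0.37, so the split by the core leaves out genes that were mostly highest there. Between TAK1-deficient and wild-type Igκ+ cells, 7 of the 14 with a core were called lower and 3 higher (median log2 difference -1.24). Of the 13 without a core, 10 were called lower and 0 higher (median -1.19), where 49.8% of all genes were called lower and 26.1% higher. Of the 9 without an entry, 5 were called lower (median -1.36). The split was not tested for either reading.

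Other genes of the interferon system were read from lists. Of 50 further interferon-stimulated genes with a probe set (62 listed), 26 (52%, against 41.5% of all genes) were highest on Igλ+ replicate 1 and 10 (20%, against 7.02%) led there by 1.5-fold. The 4 largest leads were those of Ifitm1, at 136 and 71.6 (Igκ+) and 1189.6 and 64.6 (Igλ+), Ifitm2, at 129 and 27.5 (Igκ+) and 925 and 37.7 (Igλ+), Ifitm3, at 528 and 180.1 (Igκ+) and 2792 and 251 (Igλ+), and Ifi204, at 13.4 and 5.69 (Igκ+) and 105 and 2.65 (Igλ+); they were picked after their values were seen. Of 17 genes of interferon induction, 13 (76.5%) were highest there, and Ikbke, a kinase that activates IRF3 and IRF7, read 187 and 149 in Igκ+ and 588 and 131 in Igλ+ cells. Of 15 genes of the receptors and JAK-STAT signalling only 5 were highest on that array and 7 on Igκ+ replicate 2. The ligands were dim in wild-type cells: of 10 with a probe set (16 listed), Ifng read 114 to 318, Ifnb1 13.1 to 17.8, and Ifna1 2.42 to 13.

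Markers of several, not all, other blood cells were highest on Igλ+ replicate 1. The summed signal of 13 granulocyte markers was 5802 and 375 in the Igκ+ arrays, 42916 in Igλ+ replicate 1 and 369.8 in Igλ+ replicate 2, and all 13 were highest on Igλ+ replicate 1. S100a9 read 1546 and 117 in Igκ+ and 10779 and 96.5 in Igλ+ cells, and S100a8 read 1189 and 65.9 in Igκ+ and 8309 and 56.8 in Igλ+ cells. Sums for 13 monocyte and macrophage markers were 2326 and 1061 in Igκ+ and 9769.7 and 659.7 in Igλ+ cells (12 of 13 highest on Igλ+ replicate 1). Sums for 6 megakaryocyte markers were 396 and 106 in Igκ+ and 5049 and 109 in Igλ+ cells (6 of 6), and 6 of 7 erythroid markers were highest there too. Plasmacytoid dendritic cell markers, which include the member Bst2, summed to 11572 and 12805 in Igκ+ and 13180.0 and 12425 in Igλ+ cells. Of these, 7 of 9 were highest on Igλ+ replicate 1. The brightest, Irf8, read 5399 and 5785 in Igκ+ and 6483 and 5669 in Igλ+ cells. Tcf4, the next brightest, was lowest on Igλ+ replicate 1, with 4631 and 5638 in Igκ+ and 3932 and 5063.5 in Igλ+ cells. Siglech, a dim marker added to the 2 brightest, read 14.6 and 37.3 in Igκ+ and 238 and 30.1 in Igλ+ cells. B cell markers had 1 of 9 highest there (sums 58762 to 65717). Natural killer cell markers summed highest on Igκ+ replicate 2 (3963, against 1032 to 2283 on the others) and plasma cell markers on Igκ+ replicate 1 (34555, against 14673 to 27347), with 1 of 9 and 1 of 8 highest on Igλ+ replicate 1. T cell markers summed to 429 to 462. No listed marker of the granulocyte, monocyte, megakaryocyte or B cell lists lay at the control level on all wild-type arrays. In bulk samples more cells of a type and more RNA per cell cannot be told apart, and the part of these cells in the order of the interferon-stimulated genes was not tested.

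**Figure D3:**
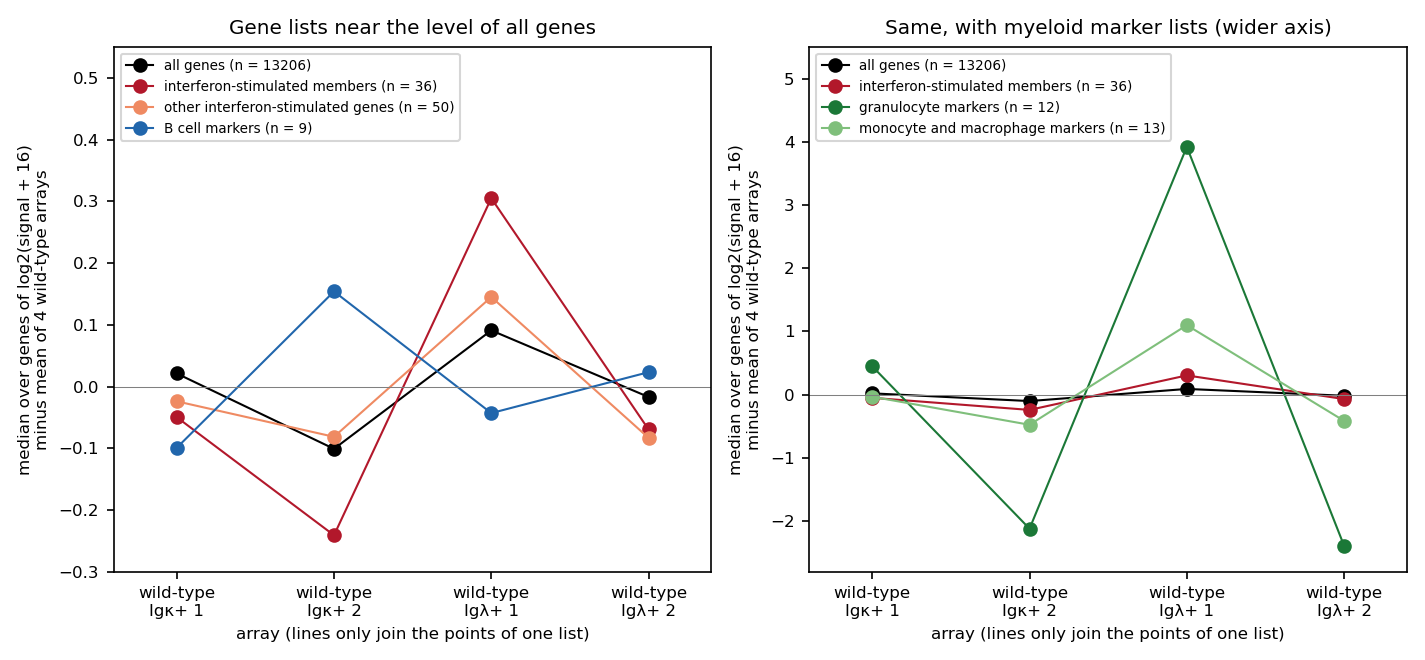
Median over the genes of a list of log2(signal + 16) minus each gene's mean over the 4 wild-type arrays (genes above the control level), with 1 point a list and array, on a narrow axis at left and a wide axis at right. The members reach 0.31 on Igλ+ replicate 1, all genes 0.09, granulocyte markers 3.92 and monocyte and macrophage markers 1.1.

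The comparison of wild-type Igλ+ with wild-type Igκ+ cells asks whether the light chain goes with another level of these genes. No member passed the test (limma, Benjamini-Hochberg adjusted p under 0.05), as no gene of the 11696 tested did (0%). The members' median difference was 0.30 on the log2(signal + 16) scale, against 0.04 over all genes. Positive values stood in 30 of 36 members, against 6759 of the 11696 genes. At an unadjusted p under 0.05 stood 1 member, against 239 genes (2.04%). That member was Mx1, with 1023 ± 225 in Igκ+ and 1524 ± 26.2 in Igλ+ cells (SD, n = 2 each), a log2 difference of 0.59 ± 0.213 (SE) and an unadjusted p = 0.0247 in limma. Both Igλ+ arrays lay above both Igκ+ arrays in 11 members, against 13.5% of genes, and below them in 2, Dtx3l and Trim25, against 9.24%. Besides Mx1 the 11 were Bst2, Irf9, Isg20, Mx2, Oas1a, Oasl1, Rsad2, Usp18, Xaf1 and Zbp1. Among these members, Dtx3l, Trim25, Rsad2 and Xaf1 each had a further probe set on which the groups overlapped. For a single gene, 2 arrays against 2 cannot go below a two-sided exact permutation p of 0.333. The median depended on single arrays, most on Igλ+ replicate 1. Without that array it was 0.06 (-0.01 over all genes), with 21 members positive, a count not made over all genes. Without Igκ+ replicate 2 it was 0.14 (0.003 over all genes), and without Igκ+ replicate 1 it was 0.39 (0.09 over all genes). Igλ+ replicate 1 is the array with the highest granulocyte and monocyte marker signal given with the wild-type order. Igκ+ replicate 1 came next, with a granulocyte sum of 5802, against 375 on Igκ+ replicate 2 and 370 on Igλ+ replicate 2.

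The comparison of TAK1-deficient with wild-type Igκ+ cells asks what loss of TAK1 goes with in cells of the same light chain. Of the 36 members 22 fell, 3 rose and 11 did not pass the test (limma, adjusted p under 0.05). Over all genes tested 49.8% were called lower and 26.1% higher, 75.9% in all. The 3 members that rose (Ifih1, Ifit1 and Eif2ak2) had negative values when arrays were centred on their medians or scaled on the spiked controls. The members' median was -1.33, against -0.70 over all genes, on the log2(signal + 16) scale. Both TAK1-deficient arrays lay below both wild-type arrays in 25 members (57.8% of all genes) and above them in 5 (31.8%). Most genes of the arrays were thus called, and the differences in signal distribution and RNA quality between the genotypes stand beside every value that follows.

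**Figure D4:**
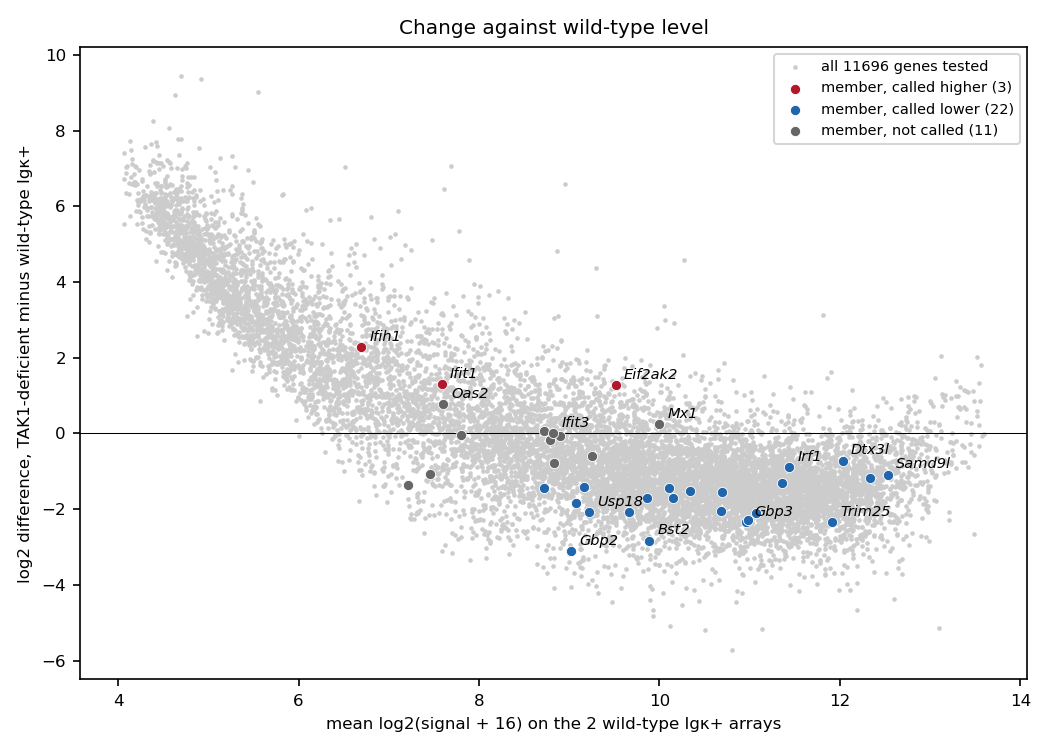
Difference between TAK1-deficient and wild-type Igκ+ arrays in log2(signal + 16) against the mean log2 level in the wild-type Igκ+ arrays, for all genes tested (grey) and the 36 members (coloured). The cloud slopes downward with level, dim genes lying above 0 and bright genes below it, and most members lie within it.

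The GTPases fell in all 4 members, with a median of -1.93. Gbp2 fell from 419.5 and 602 in wild-type Igκ+ to 12.6 and 109 in TAK1-deficient cells, a log2 difference of -3.12 ± 0.644 (SE, adjusted p = 0.00231, limma). Gbp3 fell from 2262 and 1727 to 284 and 496 (-2.35 ± 0.287, adjusted p = 0.000128). Igtp (337 and 572 in TAK1-deficient cells) and Irgm1 (325 and 473) fell by 1.51 and 1.43. The groups did not overlap in any of the 4. On 1 of the TAK1-deficient arrays Gbp2 lay at the level of the control probe sets, as did Bst2, Isg20, Mx2 and Oas3. Irgm1 missed the threshold without wild-type Igκ+ replicate 1 (adjusted p = 0.0507).

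All 5 enzymes of ubiquitin, ISG15 and ADP-ribose fell, with a median of -2.05. Trim25 read 624 and 877 in TAK1-deficient cells, against 3556 and 4151 (log2 difference -2.35 ± 0.206, adjusted p = 2.28e-05, limma). Usp18 read 85.7 and 178, against 703 and 476 (-2.08 ± 0.420, adjusted p = 0.00202). Parp9 read 362 and 399, against 1621 and 1622 (-2.05 ± 0.212, adjusted p = 5.27e-05). Its partner Dtx3l fell least of the 5, from 4155 and 4164 to 2642 and 2410.0, by 0.72. Parp14 read 1046 and 1038 against 2475 and 2746, a fall by 1.31.

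All transcription factors but Irf7 fell. Irf9 read 504 and 473 in TAK1-deficient cells, against 2170.2 and 2094 (-2.09 ± 0.179, adjusted p = 2.03e-05, limma). Stat2 read 249 and 159.7, against 576 and 538, and fell by 1.41. Irf1 read 1384 and 1574, against 2493 and 3055, and fell by 0.90. In these 3 every TAK1-deficient array lay below every wild-type array. Irf7 overlapped, with 410.1 and 472 against 503 and 424 (log2 difference -0.07, adjusted p = 0.894).

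The sensors split: Ifih1 rose and the other 3 fell. Ifih1 read 514 and 464 in TAK1-deficient cells, against 94.9 and 80.5, a log2 difference of 2.29 ± 0.440 (adjusted p = 0.00157, limma). Ddx58 read 508 and 584, against 1835 and 1452 (-1.56 ± 0.216). Dhx58 read 98.5 and 301, against 1078 and 584 (-2.09 ± 0.502), and Zbp1 read 289 and 375, against 1165 and 1076 (-1.72 ± 0.238). The opposite signs of Ifih1 and Ddx58 depended on scaling and probe set: Ifih1 was negative after median centring and spike scaling, neither passed after the level adjustment, and a further Ddx58 probe set had a log2 difference of 2.02. The Dhx58 call was lost without wild-type Igκ+ replicate 1 (adjusted p = 0.0522).

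Of the IFIT genes, Ifit1 rose and the others did not pass the test. Ifit1 read 501 and 421 in TAK1-deficient cells, against 223 and 138 (1.31 ± 0.418, adjusted p = 0.0197, limma). That call was lost when TAK1-deficient replicate 1 was left out (adjusted p = 0.0891), and likewise for wild-type Igκ+ replicate 2 (adjusted p = 0.123). Ifit3 read 339 and 573, against 463 and 411, and Ifit2 354 and 176, against 553 and 351. Both overlapped with the wild-type range. In the OAS family only Oasl1 fell, from 412 and 401 to 171 and 113 (-1.45 ± 0.342, adjusted p = 0.0047). Oas1a read 438 and 315, against 459 and 392, and Oasl2 173 and 229.8, against 225 and 189.8. Oas2 read 272 and 365, against 203 and 157, and lay above wild type without passing (adjusted p = 0.134), and Oas3 read 33.8 and 123, against 174 and 146 (adjusted p = 0.128), and was called lower without TAK1-deficient replicate 2 (adjusted p = 0.0311).

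The other effectors held 4 falls and 1 rise. Bst2 fell from 904 and 959 to 45.4 and 272 (-2.83 ± 0.623, adjusted p = 0.00321, limma). Isg20 fell from 520.5 and 530.1 to 74.4 and 234 (-1.85 ± 0.473, adjusted p = 0.00703). Cmpk2 read 305 and 236, against 1368 and 607, and fell by 1.71, and Samd9l read 2674 and 2871, against 5653 and 6173, and fell by 1.09. Eif2ak2 rose, from 546 and 936 to 1629.8 and 1869 (1.27 ± 0.334, adjusted p = 0.00804), a call lost without wild-type Igκ+ replicate 1 (adjusted p = 0.0676). Mx1 read 1194 and 1203, against 1182 and 864, and Rsad2 505 and 361, against 413 and 401. Dimmer Rsad2 probe sets lay higher in TAK1-deficient cells without overlap. They read 479 and 472 against 222 and 152 (log2 difference 1.30), and 85.1 and 42.8 against 2.70 and 14.3 (1.69). Mx2 read 86.4 and 16.8, against 189 and 91.7, with an adjusted p = 0.054, and was called lower without TAK1-deficient replicate 1 (adjusted p = 0.00767). Xaf1 and Ifi35 fell, from 2168 and 1852 to 435 and 366 (-2.28 ± 0.199, adjusted p = 2.21e-05) and from 4768 and 5489.5 to 2265 and 2208 (by 1.19). Rtp4, at 399.7 and 373 against 669.9 and 529.9, did not pass (adjusted p = 0.106).

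The TAK1-deficient values changed with how the arrays were scaled. When each array was centred on its median or scaled on the spiked controls, no member was called higher and 35 were called lower, with member medians of -3.71 and -4.51 and medians of all genes of -3.08 and -3.97. When each TAK1-deficient array was adjusted for the slope of the difference with level (a lowess curve over all genes), 10 members were lower and 4 higher, against 18.6% and 22.6% of all genes, and the members' median was -0.26, against -0.02. The 10 were Gbp2 (-2.73), Mx2 (-2.18), Oas3 (-1.79), Usp18 (-1.23), Oasl1 (-1.08), Trim25 (-0.95), Gbp3 (-0.88), Xaf1 (-0.80), Parp9 (-0.64) and Irf9 (-0.61). The 4 higher were Eif2ak2 (2.01), Mx1 (1.5), Dtx3l (0.62) and Irf1 (0.59), of which the last 2 had been called lower before the adjustment. Of 14 members with more than 1 probe set, 7 (Ddx58, Dhx58, Eif2ak2, Ifi35, Parp14, Rtp4 and Xaf1) had a further probe set with the opposite sign in this comparison. Gbp2, Gbp3, Irf9, Oasl1, Parp9, Trim25, Usp18 and Xaf1 kept a call in the lower direction under the 16 alternatives that keep 1 probe set a gene; the further Xaf1 probe set had a log2 difference of 2.45.

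Other genes of the pathway were read in the same comparison, beside the same shares over all genes. Of 48 further interferon-stimulated genes tested, 30 were called lower and 5 higher (median -1.07), where all genes stood at 49.8% lower, 26.1% higher and a median of -0.70. Slfn2 read 224 and 181 against 3069 and 3838 (log2 difference -3.99), Lgals9 255 and 315 against 1976 and 2371 (-2.86), and Ifi27l2a 694 and 794 against 4318 and 5677 (-2.71). Iigp1, among the 5, read 576 and 628 against 6.08 and 6.24; it passed the filter through the TAK1-deficient arrays only and was at the control level in both wild-type Igκ+ arrays, so no call is read from it. Of 14 receptor and JAK-STAT genes tested 10 fell and 2 rose. Ifngr2, a chain of the interferon-γ receptor, read 345 and 147 against 741 and 1239.9 (-2.01), and Jak2 1260.3 and 1180.5 against 4209.7 and 4611 (-1.84). Ifnar2 fell by 1.57, and Stat3 rose by 1.26. Of 16 genes of interferon induction 10 fell and 2 rose: Rela, a subunit of NF-κB, fell by 3.05, the adaptor Ticam1 fell by 2.95, the adaptor Myd88 fell by 2.48, and the DNA sensor Cgas rose by 2.77. Ticam1 was at the control level in both TAK1-deficient arrays (8.67 and 10.1), so its value depends on the offset of 16. Ifna1 read 1102 and 816 in TAK1-deficient cells against 11.2 and 10.2, and Ifnz 2335 and 1895 against 50.9 and 41.4; both passed the filter on low signals through the TAK1-deficient arrays alone, so no call is read from them.

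Markers of other cells also differed between the genotypes. T cell markers summed to 5913 and 6261 in the TAK1-deficient arrays, against 429 to 462 in the wild-type arrays. Stromal and endothelial markers summed to 7103 and 6871, against 1056 to 1370. The median signal over all probe sets was 323 to 324 on the TAK1-deficient arrays and 44.9 to 59.1 on the wild-type arrays. Sums over dim markers therefore have no common floor in the 2 genotypes, and higher sums do not show that such cells were present. Granulocyte markers summed to 8831 and 9507, against 5802 and 375 in wild-type Igκ+ cells. Of the 11 tested, 7 lay higher without overlap (median 2.64), against 31.8% of all genes. Only 1 of the 11 was called higher in limma, against 26.1% of all genes, and 10 were not called. The part of these signals in the members' differences was not tested.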

How the data were processed

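RNA of sorted bone marrow B cells had been hybridised as biotin-labelled cRNA to Affymetrix arrays. The authors deposited linear signal intensities calculated with MAS5, per the submitters' processing notes; the MAS5 version and settings were not given in the sources used here. Of 45101 probe sets, 34945 named 1 gene and were used; 932 named several genes, 9160 named none, and 64 were controls. A gene was represented by its probe set of highest mean signal. Values were analysed as log2(signal + 16), so fold changes of dim genes are understated. The 11696 of 18193 genes with a mean over the arrays above the 40th percentile, taken over every probe set, were fitted in limma 3.58.1 (R 4.3.3) with 3 group means over all 6 arrays (3 residual degrees of freedom), a trended empirical Bayes prior, and Benjamini-Hochberg adjustment at 0.05. The TAK1-deficient Igκ+ group was not set against wild-type Igλ+ cells, because genotype and light chain both differ there. The order of the wild-type arrays was described over the 13206 genes whose wild-type mean exceeded the 95th percentile of 27 Bacillus control probe sets. The number of arrays limits precision. Promoters came from RefSeq (GRCm38.p6). The array's own build is not given in the sources used here, and no probe coordinates are printed.

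The members and the gene lists were chosen with earlier results of these data known. Array values were to be given for called members without overlap (12 a comparison and direction) and for the 2 brightest of each role, with up to 4 genes a pathway list and 2 a marker list; the remaining members' values are added, and the pathway genes named for a lead on 1 wild-type array were picked after their values were seen. The fit was tested on simulated data. The alternatives were the offset, the filter, quantile normalisation, median centring, scaling on 18 spiked control probe sets, other choices of probe set, the variance prior, the arrays fitted, a replicate block, a lowess level adjustment, and leaving out each array. Same-numbered arrays did not vary together across genotypes (r = 0.0123 for replicate 1 minus 2) and little between the wild-type groups (r = 0.222), so the number was not used as a pairing.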

Additional observations from a re-analysis of the deposited data

How the results depend on the processing

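The members' direction in the TAK1-deficient comparison depended on scaling. The count called lower (22) was 35 after median centring and 35 after scaling on the spiked controls, and 10 after the lowess level adjustment. The count called higher (3) was 0 after either scaling and 9, of 53 probe sets, with every probe set as its own feature. The median of -1.33 was -2.32 after quantile normalisation, -3.71 after median centring, -4.51 after spike scaling and -0.26 after the level adjustment; the medians of all genes under the first 3 were -0.914, -3.08 and -3.97. Members that changed sign and passed the test before or after the change of setting were, after quantile normalisation, Dtx3l (0.066), Ifit1 (-0.039), Oas2 (-1.22) and Rsad2 (-1.15). After median centring they were Eif2ak2 (-1.11), Ifih1 (-0.096), Ifit1 (-1.07), Ifit3 (-2.36), Mx1 (-2.14), Oas2 (-1.61) and Rsad2 (-2.31). After spike scaling they were Eif2ak2 (-2.13), Ifih1 (-0.88), Ifit1 (-1.91), Ifit3 (-3.23), Mx1 (-3.14), Oas2 (-2.38) and Rsad2 (-3.18). After the level adjustment they were Dtx3l (0.62), Irf1 (0.59), Parp14 (0.18) and Samd9l (0.044). With members that never passed included, positive values numbered 7 in the fit reported, 4 after quantile normalisation and 14 after the level adjustment. Over all genes, 4304 of 11696 were positive in the fit reported. The cause was not tested. Leaving out 1 array gave 2 to 3 members higher, 20 to 23 lower and medians of -1.35 to -1.14. With the replicate number as a block, 3 members were higher and 24 lower, and the wild-type comparison still called 0 members; Ifit2 and Mx2 were the added calls. In the wild-type comparison no alternative called a member, and leaving out 1 array moved the median from 0.06 (without Igλ+ replicate 1) to 0.43 (without Igλ+ replicate 2, when 68 genes but 0 members were called). The spread of the wild-type medians ranged from 0.104 (without Igλ+ replicate 1) to 0.539, and the share of members highest on Igλ+ replicate 1 from 66.7% to 75% without 1 of the others. That share was 52.8% to 69.4% under the 3 other scalings, against 26.4% to 41.1% of all genes. With every probe set as its own feature it was 53.7% of 54 probe sets, against 34.9% of all. The spread was then 0.416, against 0.113 over all probe sets. Signal over background limits the dim members on the TAK1-deficient arrays, where the 95th percentile of the control probe sets was 75.7 and 77.8, against 10.3 to 17.4 in wild type.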
